A study of Homo sapiens with 44 samples.

Results

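Day 9 of a directed cardiac differentiation was compared with day 0 across all expressed genes of H1, a long-established line of human embryonic stem cells. The comparison uses 8 of the 44 RNA-seq libraries of the series, chosen by the day in the sample labels: 3 wells at day 0 and 5 wells at day 9. All 8 wells were coated with the laminins LN-521 and LN-221. Day 0 cells were in Nutristem medium. Day 9 cells had received CHIR99021, an inhibitor of the kinase GSK3, at day 0, then IWP2, an inhibitor of Wnt production, at day 3, and were in RPMI 1640 with B27 without insulin. Medium, agents and time change together between the groups and cannot be told apart. The day 0 wells carry the replicate numbers 1, 2 and 3 and the day 9 wells 1, 2, 3, 4 and 10, and values per well are given in that order. The labels call them biological replicates, speak of triplicate wells, and do not say whether they came from separate differentiations. The p values of the gene tests rest on a spread between wells estimated over all 44 libraries of 12 groups, not over these 8 alone. That spread may be technical.

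As background, GSK3 holds beta-catenin low, and its inhibition switches on Wnt target genes and drives stem cells through a streak-like state into mesoderm and endoderm. Blocking Wnt secretion afterwards favours cardiac mesoderm, in which GATA4, NKX2-5 and TBX5 act with other factors on the genes of the contractile apparatus. Pluripotent cells are kept by POU5F1, SOX2 and NANOG, divide fast with a short G1 phase, rely on glycolysis and are epithelial. Leaving that state is known to change adhesion, cell cycle, metabolism and chromatin together, and these programs are described below in turn.

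Total estimated counts per library ran from 23903377 to 31040870, and 17146 to 18200 genes had at least 10 counts. RNA integrity scores were 10 in each day 0 well and 9.7, 9.3, 8.9, 10 and 9.8 in the day 9 wells, so scores below 10 occurred only at day 9. Sequencing lanes were 1, 4 and 3 for the day 0 wells and 1, 5, 5, 2 and 4 for the day 9 wells. Wells of day 0 were closer to each other than wells of day 9, with a biological coefficient of variation of 7.88% against 25.3%. The labels held against their defining markers. POU5F1 measured 1384, 1469.6 and 1449.8 CPM in the day 0 wells and 3.94, 1.18, 1.69, 2.47 and 4.66 CPM in the day 9 wells, and TNNT2, cardiac troponin T, measured 5.91, 7.29 and 7.39 CPM in the day 0 wells and 1056, 641, 1033, 905 and 1344 CPM in the day 9 wells. NKX2-5 averaged 0.912 CPM at day 0 and 123 CPM at day 9, and FOXA2, an endoderm factor, 0.113 and 26.5 CPM. Markers of more than 1 lineage were thus present in the day 9 wells. In such bulk RNA, fewer cells of a type and less RNA per cell cannot be told apart. The day 9 wells also differed in composition. Small structural RNAs other than small nucleolar RNAs held 11.7, 11.8 and 11.5% of the counts in the day 0 wells and 23.3, 20.5, 12.4, 8.25 and 20.5% in the day 9 wells, with wells 1, 2 and 10 far above the day 0 level, well 3 just above it and well 4 below.

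CPM below is the count of a gene per 1e6 counts of its library, with libraries scaled to each other. A gene is said to have risen or fallen when it was called, that is, when the adjusted p of edgeR's quasi-likelihood test was under 0.05 and the log2 fold change was at least 1 in size. Of 22955 genes tested, 7278 were called (31.7%), 3934 of them higher at day 9 (17.1%) and 3344 lower (14.6%). The CPM ranges of the groups did not overlap for 12846 genes (56.0% of those tested). The shares called are the background for each group of genes below, and the median log2 fold change of all genes was 0.08. Genes were named mostly as the strongest called and the most abundant uncalled members of a list, and the others after their values were seen. A log2 fold change of at least 4 was found for 878 genes that rose and 546 that fell, and one of at least 8 for 61 and 40. On another scale the balance turned: with limma on log2(TPM + 1), a scale on which protein-coding genes hold 30.3% of the values at day 0 and 23.6% at day 9, 30.5% of the called genes were higher, against 54.1% on counts.

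**Figure D1:**
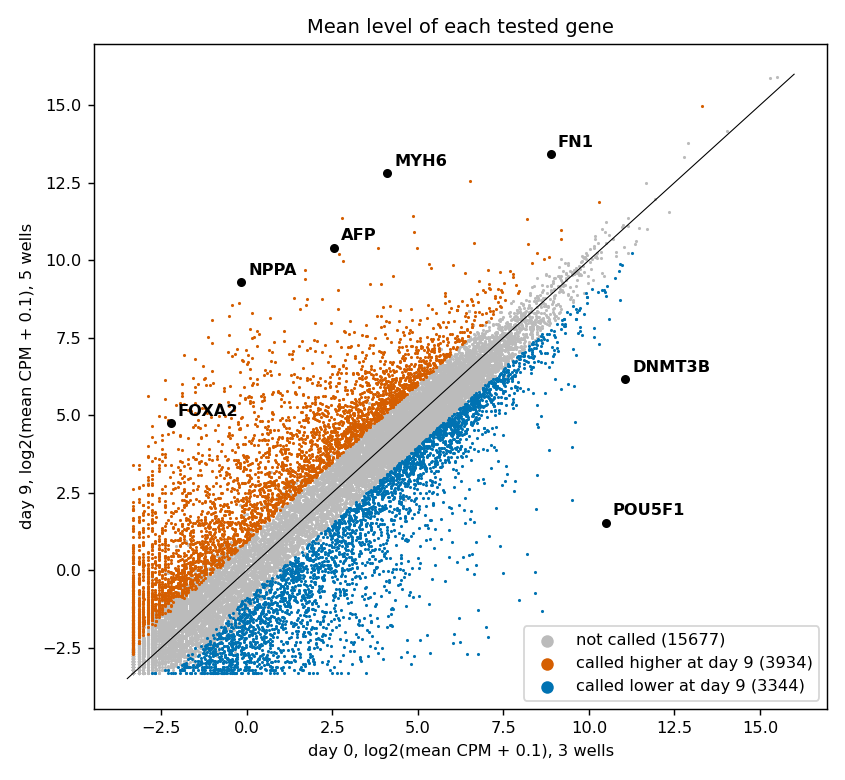
Mean level of every tested gene at day 0 (horizontal axis, 3 wells) and day 9 (vertical axis, 5 wells), as log2(CPM + 0.1), with genes called higher, called lower and not called in separate colours. NPPA, MYH6, AFP, FN1, POU5F1, DNMT3B and FOXA2 are labelled, and the 3934 genes called higher lie above the diagonal and the 3344 called lower below it.

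The genes that rose held 5.06 ± 0.0293% of all counts at day 0 (SD, n = 3) and 22.6 ± 2.00% at day 9 (SD, n = 5). Those that fell went from 19.5 ± 0.0296% to 5.81 ± 0.594%. These genes were chosen by the same contrast, so the shares describe the size of the exchange and are not tested. Most RNA, 75.4 ± 0.0389% of counts at day 0 and 71.6 ± 2.58% at day 9, came from genes that were not called. Some genes went from silence to a clear level. Of 728 genes that rose from at most 3 counts in every day 0 well, 15 reached a mean of 10 CPM. They include ABRA, an actin-binding activator of muscle transcription, BMP10, a ligand of the embryonic heart, EMCN, an endothelial surface protein, the ligands WNT2 and IHH, and PLG, APOA4 and APOC3 of the liver. In the other direction 391 genes fell to at most 3 counts in every day 9 well, and 8 of them had held at least 10 CPM, among them NANOGP8, a copy of NANOG that can share its reads, and MT1H, a metallothionein.

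Among genes with a symbol other than a clone name, a mean of at least 10 TPM in the higher group and no overlap between days, the 15 steepest rises joined heart and liver genes. NPPA, the atrial natriuretic peptide (chromosome 1, 11845709 to 11848345 on GRCh38), measured 0.571, 1.36 and 0.449 CPM in the day 0 wells and 412, 183, 453, 683 and 1407 CPM in the day 9 wells (log2 fold change 9.61 ± 1.12 (SE), adjusted p = 4.72e-09). Every day 9 well lay above every day 0 well, yet the highest day 9 well held several times the lowest. After it came HABP2, TTR, FGA, APOA1, SERPINA1, APOA2 and FGB, all secreted by liver or yolk sac endoderm, and then CGA, a hormone subunit, CRHBP, VTN, PRSS1 and APOC3. HABP2 overlaps NRAP, another tested gene, so with no statement on strand its reads may be shared. At day 9 HABP2 was highest in well 4 (132.8 CPM) and lowest in well 2 (44.6 CPM). TTR, FGA, APOA1, SERPINA1, APOA2 and FGB were highest in well 2. MYH6, the atrial myosin heavy chain, and MYL7, the atrial regulatory light chain, stood among the same 15. MYH6 measured 17.0, 16.3 and 17.5 CPM in the day 0 wells and 7457, 4202, 9090.0, 7618 and 7384 CPM in the day 9 wells (log2 fold change 8.72 ± 0.62 (SE), adjusted p = 2.83e-14). The lowest day 9 well, well 2, still lay far above all day 0 wells. APOC3 was far less even, at 0.0671, 0 and 0.0345 CPM in the day 0 wells and 7.89, 50.1, 3.19, 0.293 and 0.684 CPM in the day 9 wells: wells 4 and 10 stayed below 1 CPM.

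By the same limits the steepest falls held many genes of the pluripotent state. PRDM14, which represses differentiation genes in stem cells, measured 128, 146 and 121 CPM in the day 0 wells and 0.228, 0.0673, 0, 0.0651 and 0.257 CPM in the day 9 wells (log2 fold change -10.05 ± 0.56 (SE), adjusted p = 3.65e-17). The groups were apart by far more than their spread. IDO1, an enzyme of tryptophan breakdown, went from 74.3 to 0.102 CPM, NPTX1, a secreted pentraxin, from 340.5 to 0.497 CPM, LCK, a tyrosine kinase, from 66.6 to 0.141 CPM, and CCL26, a chemokine, was at 0 in all 5 day 9 wells after a mean of 6.67 CPM at day 0 (at least 52-fold lower, against 3 counts per library). The metallothioneins MT1G and MT1H, which bind zinc and copper and share sequence with each other, fell from 29.7 to 0.0454 CPM and from 25.4 to 0.0597 CPM. Among these 15 falls the noncoding genes were JAKMIP2-AS1, LINC00458, LINC00678, LINC00599, HPAT5 and ESRG, the last annotated as sense intronic. A further 4 long noncoding genes of at least 10 TPM, known only by clone names, fell more than PRDM14: AC007218.1, AL117378.1, AC009446.1 and AC064802.1, with log2 fold changes of -11.10, -10.88, -10.56 and -10.41.

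Pluripotency factors fell almost as a block. Of 25 such genes, 0 rose, 21 fell and 4 were not called (84.0% called against 31.7% of all genes), with a median log2 fold change of -4.98. SOX2 went from 292 to 1.33 CPM, NANOG from 107 to 0.309 CPM, DPPA4 from 728 to 15.7 CPM and L1TD1 from 457 to 14.5 CPM. The depth of the fall differed within the list: SALL4 went from 319 to 90.0 CPM, and MYCN and TFCP2L1 were not called, at 48.8 and 58.7 CPM and at 9.15 and 8.21 CPM at day 0 and day 9. The list held 0.558, 0.551 and 0.545% of the counts in the day 0 wells and 0.0310, 0.0291, 0.0382, 0.0412 and 0.0299% in the day 9 wells, so that all 5 day 9 wells lay below all day 0 wells.

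DNA methylation genes did not move together. DNMT3B, a de novo methyltransferase abundant in stem cells, measured 2088, 2173 and 2134 CPM in the day 0 wells and 80.2, 79.9, 77.7, 57.9 and 60.7 CPM in the day 9 wells (log2 fold change -4.90 ± 0.16 (SE), adjusted p = 6.25e-24). DNMT3A, the other de novo enzyme, was not called, at 148 CPM at day 0 and 151 CPM at day 9 (log2 fold change 0.02). Per transcript length, DNMT3A made up 8.27 ± 0.722% of the TPM of the pair at day 0 and 66.5 ± 3.50% at day 9. DNMT3L, DNMT1 and UHRF1, which serve de novo and maintenance methylation, also fell. Of the TET enzymes, which oxidise methylcytosine, TET2 rose from 9.88 to 47.5 CPM while TET1 and TET3 were not called. In all, 1 of 9 genes rose and 4 fell.

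The LIN28 system, which holds let-7 microRNAs low and keeps the timing of development early, fell only in part. LIN28A went from 1924 to 425 CPM and LIN28B from 283 to 107 CPM, and 5 of 11 genes of the list fell with none rising. HMGA1 fell from 1424 to 506 CPM, whereas its paralog HMGA2, a known let-7 target, was not called at 102 and 169 CPM. TRIM71 and IGF2BP3 fell and IGF2BP1 and IGF2BP2 were not called. The LIN28A level at day 9, 425 CPM, was thus far from the near-silence of POU5F1.

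Noncoding RNA changed at the same places. Of 9 long noncoding RNAs tied to pluripotency, 8 fell and none rose, with a median log2 fold change of -8.16. ESRG measured 272, 237 and 230.4 CPM in the day 0 wells and 0.986, 0.202, 0.275, 0.228 and 0.385 CPM in the day 9 wells. No day 9 well held 1 CPM. MicroRNAs are small RNAs that silence messages through a seed at bases 2 to 8. Of 29 tested genes named as microRNA hosts, 7 rose, 4 fell and 18 were not called (37.9% called against 31.7% of all genes). Examples of hosts, inside and outside this class, are described below. The libraries measure the long host transcript and not the mature microRNA. The mature sequences below (RefSeq, GRCh38.p14) are those of the hosts described, with the seed in capitals, and show which of them share a seed.
hsa-miR-302a-3p: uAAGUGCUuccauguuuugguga
hsa-miR-302b-3p: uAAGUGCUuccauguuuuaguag
hsa-miR-302c-3p: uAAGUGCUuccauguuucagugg
hsa-miR-302d-3p: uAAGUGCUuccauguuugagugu
hsa-miR-367-3p: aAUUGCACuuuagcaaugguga
hsa-miR-17-5p: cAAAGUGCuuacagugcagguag
hsa-miR-1-3p: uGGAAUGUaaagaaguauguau
hsa-miR-133a-3p: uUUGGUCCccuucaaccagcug
hsa-miR-208a-3p: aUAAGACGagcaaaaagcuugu
hsa-miR-208b-3p: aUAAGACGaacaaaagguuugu
hsa-miR-499a-5p: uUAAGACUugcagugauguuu
hsa-miR-122-5p: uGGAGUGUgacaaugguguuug

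The miR-302 members share 1 seed, and that of miR-17 holds 6 of its 7 bases shifted by 1 position. Their host, AC106864.1 (named MIR302CHG in newer annotation; chromosome 4, 112646476 to 112650051 on GRCh38), measured 366, 332 and 329.6 CPM in the day 0 wells and 1.67, 0.505, 0.550, 0.325 and 1.24 CPM in the day 9 wells (log2 fold change -8.66 ± 0.53 (SE), adjusted p = 6.48e-16). It fell to under 2 CPM in every day 9 well. It overlaps LARP7, and whether the counting used the strand is not given in the sources used here. MIR17HG, host of miR-17, was not called (log2 fold change -0.52). The miR-302 and miR-367 sequences lie inside the interval of this host. MIR1-1HG, whose interval holds 1 locus of miR-1 and of miR-133a, averaged 0.0111 and 1.04 CPM, and its antisense neighbour MIR1-1HG-AS1, which overlaps its start, rose from 1.26 to 43.6 CPM. MIR133A1HG, whose interval holds the other such locus, rose from at most 3 counts in each day 0 well to 18.3 CPM. The myosin genes MYH6, MYH7 and MYH7B, which carry miR-208a, miR-208b and miR-499a in their introns, rose together, MYH7 from 7.59 to 146 CPM and MYH7B from 1.47 to 14.1 CPM. The seeds of miR-208a and miR-208b are identical. MIR122HG, host of the liver microRNA miR-122, measured 0.0671, 0 and 0.207 CPM in the day 0 wells and 26.1, 29.5, 30.9, 45.6 and 19.8 CPM in the day 9 wells. Its highest level was in well 4.

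Adhesion shifted from E-cadherin to N-cadherin. CDH1 measured 311, 348 and 312 CPM in the day 0 wells and 59.0, 87.7, 103, 146 and 74.7 CPM in the day 9 wells and CDH2 99.7, 96.0 and 94.4 CPM in the day 0 wells and 391, 264, 420.2, 376 and 435 CPM in the day 9 wells. Neither overlapped between days, and CDH2 made up 23.7 ± 1.02% of the TPM of the pair at day 0 and 81.2 ± 5.89% at day 9. Among 25 epithelial junction genes 0 rose, 11 fell and 14 were not called, so most stayed within the threshold. Those that fell included CLDN10, the splicing regulator ESRP1, TJP3, CLDN6 and GRHL2. EPCAM, OCLN and CLDN4 were not called, and EPCAM held 126 and 106 CPM. Epithelial keratins rose instead, KRT8 from 295 to 1458 CPM, KRT18 from 221 to 756 CPM and KRT19 from 136 to 602 CPM. Of 14 mesenchymal genes 12 rose, 2 fell and 0 were not called. FN1, fibronectin, measured 500.2, 467 and 446 CPM in the day 0 wells and 9056, 7857, 15208, 16047 and 6636 CPM in the day 9 wells, and TGFB2 rose from 4.04 to 167 CPM, ZEB2 from 4.11 to 47.6 CPM and SNAI2 from 0.876 to 12.6 CPM. THY1, a surface protein of stem cells and fibroblasts, and TWIST2 fell.

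The matrix was exchanged chain by chain. Of 35 collagen genes 22 rose, 5 fell and 8 were not called. COL3A1, a fibrillar chain, measured 28.6, 27.1 and 31.9 CPM in the day 0 wells and 1842, 3858, 1292, 1252 and 1323 CPM in the day 9 wells (log2 fold change 6.03 ± 0.76 (SE), adjusted p = 2.77e-08), above day 0 in every well and highest in well 2. COL6A3 rose from 10.2 to 193 CPM and COL5A1 from 55.1 to 394 CPM, while COL4A3, COL4A4, COL9A1 and COL11A1 fell. Basement membrane genes changed partner in the same way: among 32 laminin, nidogen and integrin genes 15 rose, 6 fell and 11 were not called. LAMA4, a chain of vascular and muscle laminin, rose from 3.47 to 145 CPM, LAMB1 from 82.2 to 767 CPM and NID2 from 19.1 to 725 CPM, and LAMA3 of epithelial laminin fell. LAMA5 and LAMA2, the alpha chains of the coating laminins, were not called, at 195 and 232 CPM and at 28.0 and 34.8 CPM. ITGA6, a laminin receptor subunit of stem cells, fell from 229 to 59.8 CPM, ITGB1 was not called at 477 and 593 CPM, and ITGA8, ITGB3 and the fibronectin receptor subunit ITGA5 rose. Elastic fibre and crosslinking genes had 14 of 27 members rising and none falling, among them FBN2 (from 99.0 to 1495 CPM), HAPLN1 and VCAN of the cardiac jelly, and LTBP1. Metalloproteinases that cut versican and other matrix rose in part, ADAMTS9 from 3.81 to 171 CPM and ADAMTS1 from 16.6 to 261 CPM.

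Signalling pathways differed in how many members moved. BMP ligands, antagonists and targets moved most evenly: of 23 genes 20 rose, 0 fell and 3 were not called (median log2 fold change 3.15). Among ligands BMP2 measured 6.95, 6.89 and 7.49 CPM in the day 0 wells and 199, 166, 209, 228 and 242 CPM in the day 9 wells, BMP5 rose from 3.29 to 136 CPM and BMP4 from 5.07 to 38.1 CPM. Among extracellular inhibitors BMPER rose from 1.51 to 77.9 CPM, and CHRD and NOG also rose. Among targets the feedback genes SMAD6 (from 8.70 to 204 CPM) and BAMBI (from 13.7 to 295 CPM), ID2, ID3 and MSX1 rose. GREM1 was not called, at 13.4 and 3.57 CPM.

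In the Nodal pathway members moved in both directions, also within the co-receptor family. TDGF1, the EGF-CFC co-receptor of stem cells, measured 760.4, 709 and 691 CPM in the day 0 wells and 5.50, 1.89, 6.13, 3.87 and 5.99 CPM in the day 9 wells, and its relative CFC1 measured 0.571, 0.798 and 0.449 CPM in the day 0 wells and 80.3, 56.3, 43.9, 35.9 and 89.5 CPM in the day 9 wells. The groups did not overlap for either gene. NODAL, GDF3 and the feedback inhibitors LEFTY1 and LEFTY2 fell, LEFTY1 from 18.2 to 0.191 CPM. ACVR1B, SMAD3 and SMAD7 rose, FOXH1 fell, and SMAD2 and ACVR2B were not called. In all 5 of 16 rose and 6 fell.

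More Wnt ligands rose than fell, and the list went from a mean of 0.00164% of counts at day 0 to 0.0167% at day 9. WNT11 rose from 0.326 to 37.5 CPM, WNT5A from 4.26 to 73.8 CPM, WNT5B from 1.44 to 24.8 CPM and WNT2 from 0.0561 to 17.3 CPM, while WNT8B and WNT9A fell (7 rose and 2 fell of 18). Feedback targets of beta-catenin were divided: AXIN2 fell from 53.2 to 24.3 CPM, and LEF1, DKK1, RNF43 and LGR5 rose (8 rose and 2 fell of 16). Secreted antagonists were divided too, with SFRP2 falling from 83.4 to 2.76 CPM and SFRP5 rising from 5.48 to 80.9 CPM. SFRP1 was not called, at 281 and 186 CPM.

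FGF ligands changed in kind. FGF2 fell from 190.5 to 10.2 CPM and FGF4 from 7.35 to 0.108 CPM, and FGF10, FGF8, FGF9 and FGF18 rose, FGF10 from 0.645 to 14.7 CPM. Among receptors FGFR1 fell from 389.7 to 150.1 CPM and FGFR3 rose from 30.4 to 146 CPM. The ERK feedback genes DUSP6 (from 33.0 to 180.3 CPM), SPRY2 and ETV5 rose, and 10 of 25 genes rose and 6 fell. In the Notch pathway JAG1 rose from 84.3 to 313 CPM, the targets HES1 and HEY1 rose, and NOTCH1 and NOTCH2 were not called. In retinoic acid metabolism ALDH1A1 (from 1.94 to 50.5 CPM), RARB and RXRG rose, and CRABP1 (from 90.3 to 5.98 CPM), CYP26A1 and RARG fell. Of 18 genes of the YAP and TEAD program 10 rose, 1 fell and 7 were not called, led by ANKRD1 (from 14.2 to 1354 CPM), which is also a cardiac Z-disc gene; CTGF and CYR61, its classical targets, were not called at 50.5 and 141 CPM and at 30.7 and 80.2 CPM. Immediate early genes rose in 12 of 22 cases, among them JUN, FOSL2 and BTG2, whereas MYC fell from 61.6 to 16.7 CPM.

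**Figure D2:**
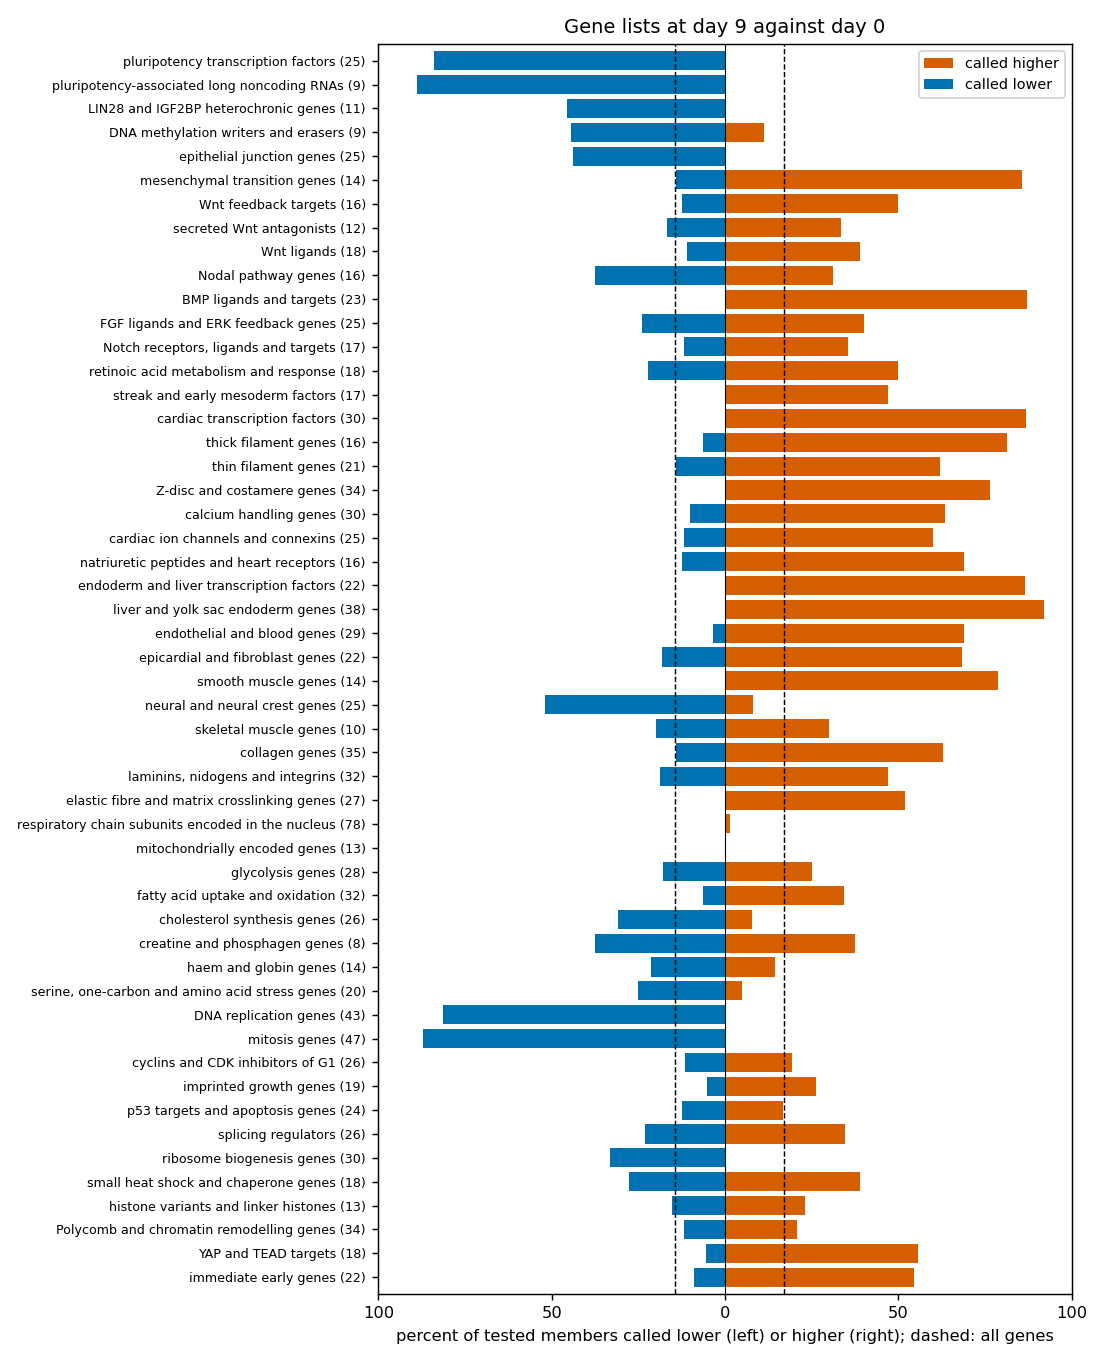
Percent of the tested members of each gene list called higher (to the right) and called lower (to the left) at day 9, for the 52 lists ordered by theme; the number of members tested stands beside each name. Dashed lines mark the background of 17.1% higher and 14.6% lower over all genes, and cardiac, BMP and liver lists extend only or mostly to the right, pluripotency, replication and mitosis lists to the left.

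Cardiac transcription factors rose as a set. Of 30, 26 rose, 0 fell and 4 were not called, with a median log2 fold change of 5.58. TBX5, of the first heart field, measured 0.269, 0.0998 and 0.138 CPM in the day 0 wells and 76.2, 37.5, 45.7, 41.3 and 46.3 CPM in the day 9 wells (log2 fold change 8.15 ± 0.67 (SE), adjusted p = 1.25e-12). HAND1, TBX20, GATA4, GATA6 and HAND2 rose with it, TBX20 from 0.587 to 132 CPM and GATA4 from 0.643 to 120.3 CPM. MYOCD, a coactivator of SRF, rose from 2.02 to 169.7 CPM, while SRF itself was not called at 51.3 and 66.3 CPM. Of the MEF2 factors MEF2C rose from 1.65 to 104 CPM and MEF2A from 23.8 to 119 CPM, and MEF2D was not called. ISL1, a factor of the second heart field and of progenitors, rose from 0.687 to 14.0 CPM. IRX4 and TBX2 or TBX3, known from ventricle and from conduction or chamber borders, rose side by side, IRX4 from 1.24 to 37.7 CPM and TBX3 from 1.00 to 114 CPM, and NR2F2 and NR2F1, atrial factors, held 7.97 and 7.30 CPM at day 9, of which only NR2F2 was called.

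The contractile apparatus rose on both filaments. Of 16 thick filament genes 13 rose, 1 fell and 2 were not called, of 21 thin filament genes 13 rose, 3 fell and 5 were not called, and of 34 Z-disc and costamere genes 26 rose, 0 fell and 8 were not called. MYL7, the atrial regulatory light chain, measured 5.34, 9.78 and 5.32 CPM in the day 0 wells and 2176, 1062, 2477, 2609 and 4758 CPM in the day 9 wells, without overlap between days. Thick filament genes as a list held 0.0239, 0.0272 and 0.0267% of the counts in the day 0 wells and 1.54, 0.940, 2.53, 2.08 and 1.80% in the day 9 wells, and well 2 was lowest. MYBPC3 rose from 1.51 to 282 CPM and MYL4 from 3.15 to 821 CPM. On the thin filament ACTC1 measured 27.6, 32.9 and 25.7 CPM in the day 0 wells and 2550.5, 1282, 2843, 2086 and 5028 CPM in the day 9 wells and TNNI1 rose from 3.14 to 679 CPM, while TNNT1 and TPM3, of slow skeletal and cytoskeletal use, fell. At the Z-disc UNC45B, a myosin chaperone, rose from 0.999 to 312 CPM, CAPN3 from 0.594 to 191 CPM, XIRP1 from 0.962 to 221 CPM and ACTN2 from 3.18 to 378 CPM, and MYOZ1, MYOT and XIRP2 were not called.

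Muscle motifs were counted in the promoters of these genes and of all tested genes, with no test, since the genes were chosen by the same contrast. Windows of 300 bases (250 before and 50 after the start site; RefSeq, GRCh38.p14) were searched on both strands, and a match is a description of letters and not a binding site. Of the called sarcomere genes of the 3 lists with a promoter in the table, 6 of 36 (16.7%) held a CArG box, against 168 of 14673 (1.14%) of tested genes. The MEF2 box was found in 10 of 36 (27.8%) against 263 of 14673 (1.79%), and CATTCC, the M-CAT element bound by TEAD factors, in 14 of 36 (38.9%) against 1669 of 14673 (11.4%). A TATA box (TATAAA), whose letters can lie inside a MEF2 box, was found in 9 of 36 against 1071 of 14673 (7.30%). The 250 bases before the start of ACTC1 (chr15:34795550-34795799, minus strand) and of HSPB7, a small heat shock gene of the Z-disc (chr1:16018044-16018293, minus strand), are shown because together they hold all of these, in capitals: in ACTC1 the CArG box 109 bases and the TATA box 31 bases before the start, and in HSPB7 the M-CAT element at 187, the MEF2 box at 82 and the TATA box at 28. HSPB7 rose from 2.00 to 212 CPM.
ACTC1: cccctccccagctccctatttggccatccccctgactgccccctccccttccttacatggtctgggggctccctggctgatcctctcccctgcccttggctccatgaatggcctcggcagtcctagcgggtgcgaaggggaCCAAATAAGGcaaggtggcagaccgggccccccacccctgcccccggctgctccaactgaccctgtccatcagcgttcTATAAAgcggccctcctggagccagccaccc
HSPB7: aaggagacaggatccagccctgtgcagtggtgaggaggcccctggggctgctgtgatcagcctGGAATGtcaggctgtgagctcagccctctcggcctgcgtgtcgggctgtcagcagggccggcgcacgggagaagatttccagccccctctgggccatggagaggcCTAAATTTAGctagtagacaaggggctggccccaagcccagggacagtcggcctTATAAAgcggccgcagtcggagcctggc

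Within paralogous pairs the forms were exchanged to different degrees. Of the TPM of MYH6 and MYH7 together, MYH7, the ventricular chain, took 1.81 ± 1.17% at day 9 (SD, n = 5), and of MYL7 and MYL2 together, MYL2, the ventricular light chain, took 0.0121 ± 0.00473%. MYL2 was not called, at 0.0786 and 0.487 CPM. TNNI3, the mature cardiac troponin I, went from 93.8 ± 2.95% of its pair with TNNI1 to 7.08 ± 1.39% while its own level was not called (log2 fold change 0.43). ACTA1 took 3.84 ± 1.41% of its pair with ACTC1 at day 9 and ACTA2 20.8 ± 3.21%. These myosins and actins are similar in sequence, and reads shared by copies were divided by estimation. Outside the sarcomere, SMARCD3, the chromatin remodelling subunit of heart and muscle, went from 4.81 ± 0.205% of its pair with SMARCD1 to 54.8 ± 4.63%, ENO3 from 0.873 ± 0.0639% of its pair with ENO1 to 9.38 ± 2.23%, and COX6A2 from 0.380 ± 0.195% of its pair with COX6A1 to 11.3 ± 3.30%. COX7A1, the muscle form of another subunit, stayed at 0.433 ± 0.106% and 0.328 ± 0.222%. LDHB took 48.6 ± 2.48% of its pair with LDHA at day 0 and 52.9 ± 4.16% at day 9. No test was run on these pair shares.

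**Figure D3:**
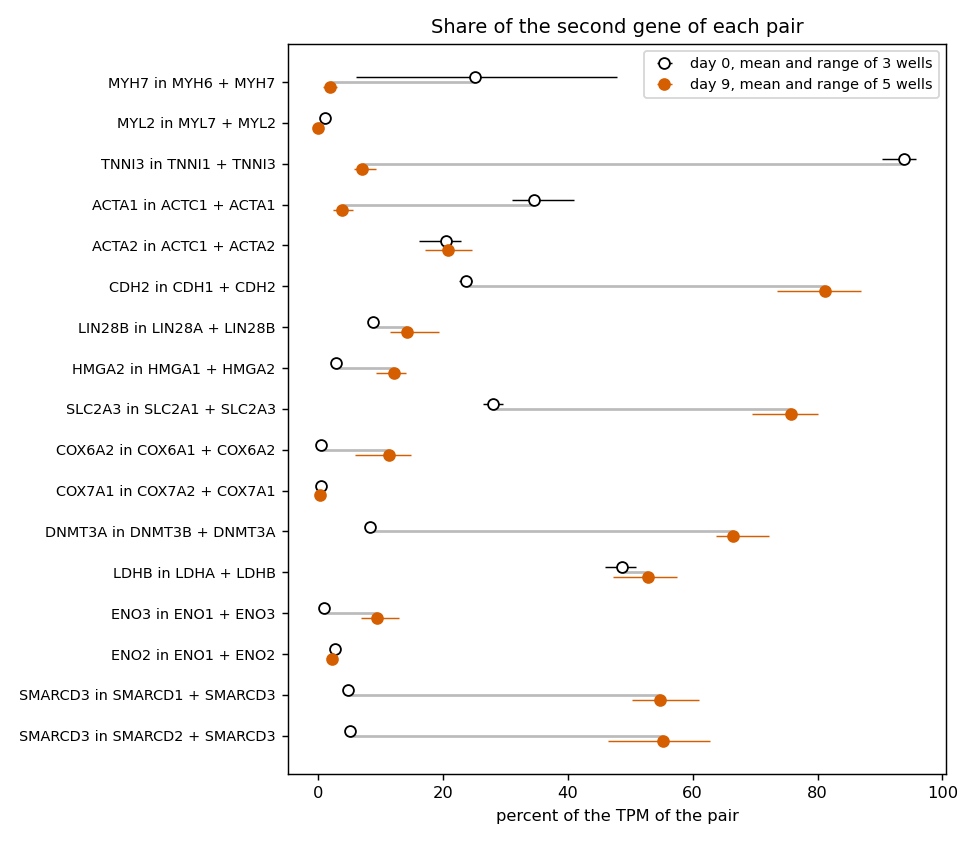
Share of the second gene in the TPM of 17 pairs of related genes, in percent, at day 0 (open circles, mean of 3 wells) and day 9 (filled circles, mean of 5 wells), with lines for the range of the wells. DNMT3A, CDH2, SLC2A3 and SMARCD3 gain over 40 percentage points within their pairs, TNNI3 loses over 80, and LDHB, COX7A1 and ENO2 move by less than 5.

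Excitation and calcium genes rose in part. Of 30 calcium genes 19 rose, 3 fell and 8 were not called: PLN, the brake of the calcium pump, rose from 1.54 to 108 CPM, the exchanger SLC8A1 from 15.1 to 604 CPM, the release channel RYR2 from 32.9 to 268 CPM and the pump ATP2A2 from 168 to 779 CPM, and RYR1, ITPR2 and ATP2A3 of other tissues fell. S100A1 and CASQ2 averaged 0.333 and 0.643 CPM at day 9, and of these CASQ2 was called higher. Of 25 channel and connexin genes 15 rose, 3 fell and 7 were not called. The pacemaker channel HCN4 measured 9.46, 10.8 and 9.22 CPM in the day 0 wells and 82.7, 54.6, 72.5, 79.0 and 80.2 CPM in the day 9 wells, and KCNJ3 and KCNJ5, the subunits of the atrial acetylcholine-gated channel, rose from 0.564 to 11.6 CPM and from 0.224 to 35.0 CPM. KCNJ2, of the resting potential, was not called at 4.40 and 3.12 CPM. GJA1, the connexin of ventricle and of stem cells, fell from 1249 to 159 CPM. The receptors CHRM2 (from 0.179 to 41.3 CPM) and NPR3 rose, as did CORIN, the protease that processes natriuretic peptides (from 1.01 to 178 CPM), and ADRB1 was not called at 0.291 and 0.351 CPM.

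Endoderm genes rose beside the cardiac ones. Of 22 endoderm and liver transcription factors 19 rose, 0 fell and 3 were not called, among them HNF4A (from 0.170 to 52.7 CPM), FOXA1 (from 0.135 to 40.5 CPM), HHEX and PROX1; GATA6 and TBX3, members of this list too, are shared with the heart. Of 38 secreted and uptake genes of liver and yolk sac 35 rose and none fell (median log2 fold change 6.33). AFP, the fetal albumin, measured 8.15, 2.76 and 6.18 CPM in the day 0 wells and 1217, 4221, 917, 175 and 244 CPM in the day 9 wells. APOE, already at 360.2 CPM at day 0, was not called. The list held 0.0418, 0.0463 and 0.0433% of the counts in the day 0 wells and 0.375, 1.09, 0.378, 0.234 and 0.170% in the day 9 wells. All day 9 wells exceeded all day 0 wells, but well 2 held several times the share of well 10. The same well 2 had the lowest thick filament share (0.940%), but the highest was in well 3 (2.53%), with 1.80% in well 10. NPPA was highest in well 10. The endoderm and liver transcription factors held most in well 4 (0.0815%), against 0.0489% in well 2 and 0.0395% in well 10. Whether the makeup of the wells accounts for their spread in other genes was not tested.

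Gene lists of other lineages also had rising members. Of 29 endothelial and blood genes 20 rose, 1 fell and 8 were not called. CDH5, the cadherin of endothelium, measured 0.537, 0.466 and 0.587 CPM in the day 0 wells and 57.7, 51.4, 63.0, 61.9 and 37.3 CPM in the day 9 wells, and PECAM1 and EMCN rose with it. KDR was not called at 180.4 and 288 CPM, HBE1, an embryonic globin, reached 4.20 CPM, and the white cell marker PTPRC stayed under 0.1 CPM on average. Of 22 epicardial and fibroblast genes 15 rose, 4 fell and 3 were not called. BNC1 rose from 0.540 to 31.1 CPM, LUM from 2.78 to 149.7 CPM, WT1 from 0.124 to 8.79 CPM and TCF21 from 0.168 to 4.67 CPM, whereas ALDH1A2, the retinoic acid enzyme of epicardium, was not called at 1.65 CPM and PODXL, also a stem cell surface protein, fell from 1145 to 185 CPM. Smooth muscle genes had 11 of 14 members rising and none falling, and ACTA2 rose from 4.46 to 433 CPM, MYH11 from 1.57 to 10.0 CPM. Several of these genes are also used by early cardiac muscle.

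Neural genes fell. Of 25, 2 rose, 13 fell and 10 were not called, and the fallen ones include SOX2, SOX3 and FOXD3, which pluripotent cells also express, and TUBB3 (from 360.1 to 39.7 CPM). NCAM1 rose from 10.1 to 60.7 CPM. Of 10 skeletal muscle genes 3 rose, 2 fell and 5 were not called (1 rose without day 0 well 3); CKM, the muscle creatine kinase, rose from 0.799 to 109 CPM. Among 17 streak and early mesoderm genes 8 rose, 0 fell and 9 were not called: PDGFRA (from 7.93 to 262 CPM), APLNR and FOXF1 rose, and TBXT, EOMES, MIXL1 and GSC, the factors of the streak itself, were not called and averaged under 2 CPM on both days.

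Families of transcription factors differed in direction. All 6 GATA genes were tested and 5 rose, GATA6 from 0.392 to 85.6 CPM and GATA2, of blood and endothelium, from 0.505 to 16.7 CPM; GATA1 was not called. Of 15 T-box genes 8 rose, 1 fell and 6 were not called. HOX genes rose in 16 of 28 cases with none falling, but at low levels. The highest were HOXB3, HOXB4 and HOXB2, at 14.6, 11.3 and 10.4 CPM at day 9 after 0.170, 0.0785 and 0.0897 CPM at day 0. Genes of the HOXA, HOXB and HOXC clusters were among those that rose, and HOXD1, HOXD8 and HOXD9, the HOXD genes tested, were not called and held 0.0828, 0.0209 and 0.0238 CPM at day 9. HOXB3 overlaps HOXB4 and other neighbours in the annotation. Of 19 SOX genes 4 rose, 6 fell and 9 were not called, SOX17, SOX7 and SOX18 of endoderm and endothelium on one side and SOX2, SOX3 and SOX21 on the other. Zinc finger genes named ZNF had few calls for their number: of 487, 40 rose, 73 fell and 374 were not called (23.2% against 31.7%).

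The lists of energy metabolism differed in how many members were called. Of 78 nuclear genes of the respiratory chain only COX6A2 was called, rising from 0.326 to 10.8 CPM, and 77 were not called. None of the 13 protein-coding mitochondrial genes was called, while the mitochondrial ribosomal RNAs MT-RNR1 and MT-RNR2 rose. Of 28 glycolysis genes 7 rose, 5 fell and 16 were not called. SLC2A1, the glucose transporter of fast-growing cells, measured 570.4, 669.9 and 639 CPM in the day 0 wells and 239.5, 305, 210.4, 195 and 236 CPM in the day 9 wells, and SLC2A3 571, 589 and 595 CPM in the day 0 wells and 1416, 1591, 1874, 1587 and 1799.7 CPM in the day 9 wells, so the 2 transporters moved in opposite directions in every well. PGK1, PGAM1 and PKM fell and PDK1 (from 119.9 to 530.5 CPM), ENO3 and PGAM2 rose, and GAPDH was not called. Of 32 fatty acid genes 11 rose, 2 fell and 19 were not called, with PPARGC1A, a coactivator of mitochondrial genes, rising from 3.24 to 38.0 CPM and FABP3 from 7.54 to 38.7 CPM. HADHA, ACADM and CPT2, enzymes of beta-oxidation itself, were not called. Cholesterol synthesis genes fell in 8 of 26 cases and rose in 2, with ACAT2 at a log2 fold change of -1.94 and LSS, which closes the sterol rings, at -1.23. MTHFD1 and CBS of one-carbon metabolism fell, and CKMT1A and CKMT1B, near-identical copies that share reads, fell from 23.0 to 0.555 CPM and from 22.0 to 0.639 CPM.

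The cell division program fell in most members, by less than the pluripotency factors. Of 43 replication genes 0 rose, 35 fell and 8 were not called (median log2 fold change -1.56), and of 47 mitosis genes 0 rose, 41 fell and 6 were not called (median -1.48). MCM6, of the replicative helicase, measured 216, 222 and 217 CPM in the day 0 wells and 38.9, 39.9, 37.5, 44.9 and 50.9 CPM in the day 9 wells, and BUB1B, of the spindle checkpoint, 219, 228 and 214 CPM in the day 0 wells and 35.9, 33.1, 41.8, 40.7 and 34.4 CPM in the day 9 wells. The fall left day 9 levels at a sizeable part of those of day 0: the mitosis list held 0.619, 0.584 and 0.600% of the counts in the day 0 wells and 0.175, 0.190, 0.210, 0.205 and 0.156% in the day 9 wells. Replication-dependent histone genes, whose RNA is made in S phase, fell in 33 of 69 cases and rose in none. Of 26 G1 genes 5 rose, 3 fell and 18 were not called (30.8% called, near the 31.7% of all genes). The inhibitors CDKN1A (from 7.95 to 31.3 CPM), CDKN1C, CDKN1B and CDKN2B and the kinase CDK6 rose. E2F1, E2F7 and RBL1 fell, and the cyclins CCND1, CCND2 and CCNE1 were not called.

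Cell cycle motifs were counted in the same way in the promoters of the fallen mitosis genes. TTTGAA, the CHR element, was found in 20 of 34 (58.8%) against 1556 of 14673 (10.6%) of tested genes, and CCAAT in 26 of 34 (76.5%) against 5257 of 14673 (35.8%). Of the fallen histone genes 13 of 28 (46.4%) held the octamer ATGCAAAT, against 231 of 14673 (1.57%), and 17 of 28 (60.7%) the TATA box. CDC20, an activator of the anaphase-promoting complex that fell from 172 to 41.5 CPM, is shown as an example (chr1:43358731-43358980, plus strand), with 2 CCAAT boxes, 100 and 55 bases before the start, and 2 CHR elements, at 178 and 65, in capitals.
CDC20: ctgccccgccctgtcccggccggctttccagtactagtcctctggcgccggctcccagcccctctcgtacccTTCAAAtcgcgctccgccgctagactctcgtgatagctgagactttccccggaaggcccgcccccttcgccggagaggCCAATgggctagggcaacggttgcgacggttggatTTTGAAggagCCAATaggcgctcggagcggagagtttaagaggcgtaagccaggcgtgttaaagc

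Growth machinery fell unevenly. Of 30 ribosome biogenesis genes 0 rose, 10 fell and 20 were not called (33.3% called, near the 31.7% of all genes). Those that fell include BOP1, DDX21 and FBL. Of 42 proteasome genes 0 rose, 13 fell and 29 were not called, led by PSMD1 (from 227 to 79.1 CPM). By contrast, of 84 cytoplasmic ribosomal protein genes only 4 fell, a share of 4.76%, and they held 6.57, 6.61 and 6.82% of the counts in the day 0 wells and 6.63, 6.89, 6.27, 5.90 and 6.77% in the day 9 wells. RPL22L1 and RPL39L, paralogs of core ribosomal proteins, were among those that fell, RPL22L1 from 58.5 to 15.8 CPM. Of 78 mitochondrial ribosomal protein genes 2 fell and none rose. Chaperones parted by class: the general HSPA8 (from 1728 to 693 CPM), HSP90AA1 and HSPE1 fell, and the small heat shock genes HSPB7, HSPB8, CRYAB, HSPB2 and HSPB1, with the co-chaperone BAG3, rose.

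Chromatin and splicing regulators held members on both sides. Of 34 Polycomb and remodelling genes 7 rose, 4 fell and 23 were not called (32.4% called, near the 31.7% of all genes). DPF3, a heart and muscle subunit of the BAF complex, rose from 0.380 to 30.5 CPM and SMARCD3 from 4.30 to 62.1 CPM; JARID2 fell from 330.0 to 52.8 CPM; and the core subunits SUZ12, EED and SMARCA4 were not called. Of histone variants MacroH2A genes H2AFY and H2AFY2 rose, H2AFY from 57.8 to 179 CPM, and H2AFZ fell from 385 to 104 CPM. Of 26 splicing regulators 9 rose, 6 fell and 11 were not called: RBM24 (from 1.03 to 65.5 CPM) and RBM20 (from 0.921 to 48.3 CPM), which act on titin and other muscle messages, MBNL2 and QKI rose, and ESRP1, ESRP2 and SRSF3 fell.

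Imprinted growth genes did not share a direction. IGF2, a fetal growth factor, measured 6.28, 5.76 and 6.91 CPM in the day 0 wells and 1298, 2316, 798, 580.3 and 869 CPM in the day 9 wells, and H19, its neighbour, rose from 6.22 to 524 CPM. Both were highest in well 2. SNRPN fell from 853 to 232 CPM, and IGF2R and PEG10 were not called. In all 5 of 19 rose and 1 fell (31.6% called, near the 31.7% of all genes). Of 24 p53 target and apoptosis genes 4 rose, 3 fell and 17 were not called (29.2% called, near the 31.7% of all genes). PMAIP1, a trigger of stem cell death, fell from 154 to 3.88 CPM and CDKN1A rose.

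By type of gene the changes were spread widely. Of 16855 protein-coding genes 33.6% were called, of 3654 long noncoding genes 29.7%, and of 1582 pseudogenes 20.9%. Of 550 tested antisense RNAs named AS, 119 rose, 66 fell and 365 were not called (33.6% called, near the 31.7% of all genes). Whether the class followed its neighbouring genes was not tested. In 3 examples beside transcription factor genes, the antisense RNAs changed in the direction of their neighbours. GATA6-AS1 rose from 0.247 to 41.9 CPM and TBX2-AS1 to 8.32 CPM, and FOXD3-AS1 fell from 33.4 to 0.108 CPM. They overlap these genes or lie beside them, so with no statement on strand the reads cannot be kept apart with certainty. Small nucleolar RNA genes rose in 27 of 112 cases (17 and 15 without day 0 well 1 and well 2, and 60 with RNA integrity as a covariate) and fell in 1, while their host genes named SNHG fell in 7 of 23 and rose in 1. Over the autosomes and chromosome X the share of tested genes called ran from 27.0% on chromosome 16 to 35.5% on chromosome 4. On chromosome 19, 10.2% of genes were higher and 19.6% lower, and on chromosome X 14.6% and 19.8%, against 17.1% and 14.6% of all genes.

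The days between place these changes in time. As median log2 shift of a list against day 0 (on CPM + 0.5, all groups scaled together), Wnt feedback targets were at 2.81 on day 1, 1.98 on day 3, 0.65 on day 5 and 0.99 on day 9. Streak and early mesoderm genes stood at 0.91, 4.66, 1.37 and 0.64 on the same days, so day 9 shows little of a large passing wave. BMP genes and endoderm factors were up by day 3, at 2.07 and 2.57. Cardiac factors reached 1.82 on day 3 and 4.04 on day 5, and thick filament genes 0.80 on day 5, 3.44 on day 7 and 4.74 on day 9. Liver and yolk sac genes were on those days at 1.69, 2.60 and 3.72. Mitosis genes were at 0.06 on day 3, -0.63 on day 7 and -1.48 on day 9. All these medians share the day 0 wells, and no test was run between days.

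**Figure D4:**
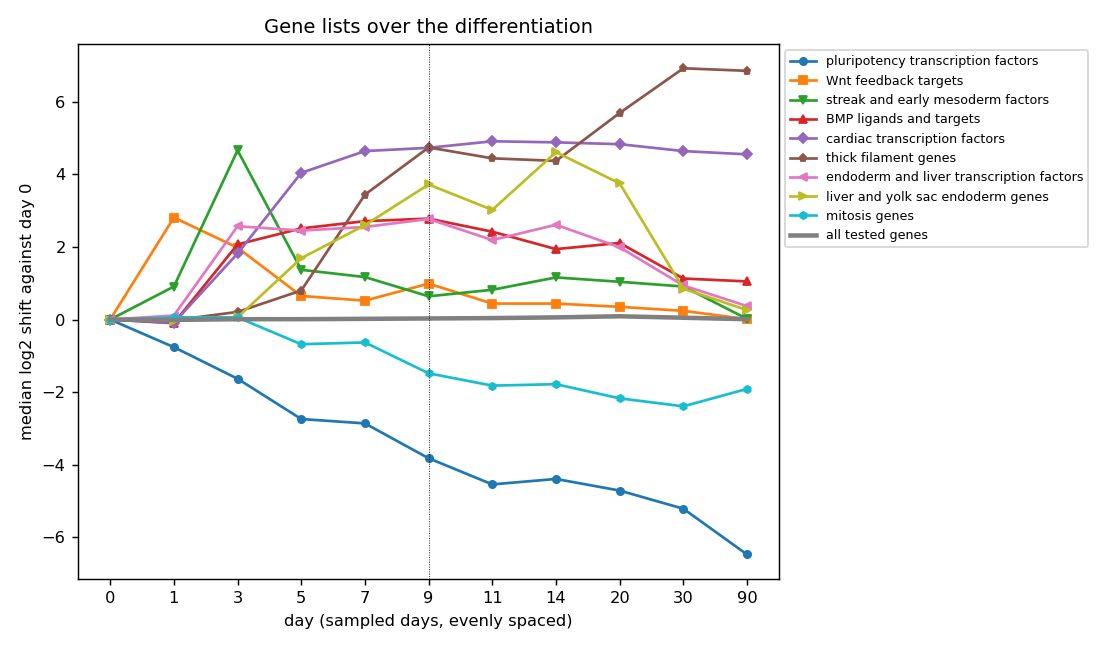
Median log2 shift against day 0 of 9 gene lists, from day 0 to day 90 (horizontal axis, sampled days evenly spaced), with the median of all tested genes in grey. Wnt targets and streak genes peak on days 1 and 3, cardiac factors stand at 4.04 on day 5 and 4.73 on day 9, thick filament genes rise from 0.80 on day 5 to 4.74 on day 9, and the liver list is highest on day 14.

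4 shares of the library were compared by exact permutation tests, two-sided, for which 5 against 3 wells allow no p under 0.0357. Protein-coding genes held 85.1% of counts at day 0 and 79.3% at day 9 (exact p = 0.25, adjusted over the 4 shares 0.333), mitochondrially encoded genes 0.316% and 0.409% (p = 0.357, adjusted 0.357), long noncoding genes 1.52% and 1.73% (p = 0.179, adjusted 0.333), and the 100 most abundant genes of each library 27.6% and 34.1% (p = 0.143, adjusted 0.333). None differed beyond the spread between wells. Well 4 held the highest protein-coding share, 88.2%, and well 1 the lowest, 72.2%.

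**Figure D5:**
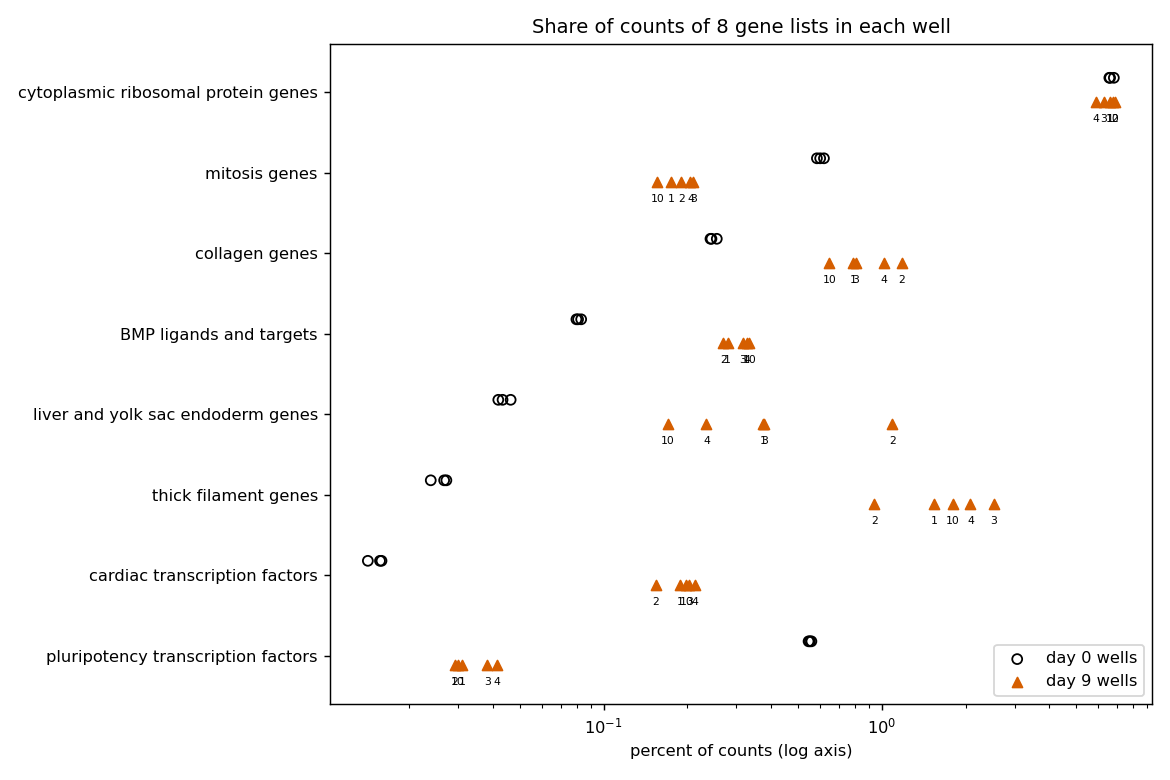
Percent of counts held by 8 gene lists in each of the 8 wells, on a log axis (circles for day 0 wells, triangles for day 9 wells with their replicate number). The day 0 and day 9 wells are apart for each of these lists except the cytoplasmic ribosomal proteins, and the liver list spreads from 0.170% to 1.09% across day 9 wells.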

How the data were processed

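Total RNA was sequenced from TruSeq stranded libraries as 150 bp read pairs, per the labels' protocols. The deposited tables hold estimated counts per Ensembl gene and TPM, made by the authors with cutadapt, STAR 2.5.2b and RSEM 1.2.31 on hg38, per the submitters' processing notes; annotation and use of strand are not given in the sources used here. RNA integrity scores are as deposited.

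Estimated counts (93.8% whole) were rounded. All 44 libraries of 12 groups were fitted in 1 edgeR 4.0.16 quasi-likelihood model with TMM scaling and filterByExpr, and day 9 minus day 0 was tested with Benjamini-Hochberg adjustment over 22955 genes. Alternatives used limma 3.58.1 and DESeq2 1.42.0. Named genes were, per list, up to 4 called members in each direction and up to 2 uncalled ones, plus the 15 steepest called changes each way among genes with a symbol other than a clone name, at least 10 TPM in the higher group and no overlap; others were picked after their values were seen. The members and the 52 lists and 29 gene classes were chosen with earlier results of these data known. Lists carry no test of their own. At a floor of 3 counts a gene stands at up to 0.104 CPM at day 0 and 0.128 CPM at day 9, which covers counting error only. Some genes are not reported here.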

Additional observations from a re-analysis of the deposited data

Results flagged for a closer look

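In 38 values given per well, the 5 day 9 wells were searched for 1 well far from the others (a gap over 0.71 of the whole range). Chance finds such a gap in about 1 of 20 groups of normally spread values. The 38 values are not independent, since AFP and APOC3 belong to the liver and yolk sac list, so no excess over chance can be read. Such gaps were found in 6 values. Day 9 well 2 was the highest in 4 of them: the liver and yolk sac share of counts at 1.09%, AFP at 4221.0 CPM, APOC3 at 50.1 CPM and COL3A1 at 3857.5 CPM. Day 9 well 1 was the highest in the other two, TBX5 at 76.17 CPM and ESRG at 0.9857 CPM. Why these wells differ was not tested.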

How the results depend on the processing

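Without 1 well at a time the genes called numbered 6678 to 7230. Other scaling, filters, covariates, DESeq2 on counts and a fit of only the 8 compared libraries gave 6468 to 7825. The fit of only the 8 compared libraries gave the 7825. With limma on log2(TPM + 1), 3739 genes were called, 1140 of them higher (30.5%). With a pseudocount of 0.1, 2091 were called higher (32.4%), and the median log2 fold change of all genes was -0.22 against 0.08. With TPM rescaled over protein-coding genes the share higher was 54.0%. Under no alternative was a called gene called in the opposite direction. On log2(TPM + 1), 88 of 178 counts of called list members moved by over 1.5 times. Small nucleolar RNA genes called higher numbered 60 with RNA integrity as a covariate and 44 in a fit of the 8 compared libraries, against 27. Without 1 well, some small counts moved by 1 gene: those that fell in the BMP, Z-disc and streak lists (to 1), the T-box and imprinted lists (to 2), the Wnt feedback list (to 1) and the YAP list (to 0), and those that rose among cholesterol genes (to 1) and SNHG genes (to 2). CYR61, MYL2, TBXT and GREM1 were called in some alternatives on counts. The long noncoding share of TPM differed by -0.0791 percentage points, the opposite sign to that of counts; the cause was not tested.

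Wells with the same replicate number showed no clear shared deviation (correlations of -0.106 to 0.143 over 3 pairs). Wells with different numbers gave -0.207 to 0.187. So few pairs cannot decide whether the numbers pair the wells. With the replicate block 7271 genes were called, 3900 higher and 3371 lower. Depth limits calls for genes near the floor of 3 counts.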
